A study of Mus musculus with 4 samples.

Results

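Liver transporters of bile acids and other organic anions were examined at the RNA level in male C57BL/6 mice, an inbred laboratory strain. The set had 10 listed genes: the sinusoidal uptake carriers Slc10a1, Slco1a1, Slco1a4, Slco1b2 and Slco2b1, the canalicular exporters Abcb11, Abcb4 and Abcc2, and the basolateral exporters Abcc3 and Abcc4. Of these, 9 had a row under their own symbol among 22849 symbols, and Abcc2 appeared only in a row shared with Gm10768, a long noncoding RNA gene, which is described but not counted. Every mouse was on a 60% fat diet, given for 12 weeks. The vehicle group had that diet alone (2 libraries), and for the UAB126 group it also held UAB126, 1.2 g in each kg (2 libraries). UAB126 is a compound given only by this code, and the sources used here do not state the age of the mice. The titles number the libraries without naming animals, so a p-value here reflects only how these 4 samples spread, which may be technical.

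Hepatocytes take up bile acids and other organic anions from sinusoidal blood and secrete them across the canalicular membrane into bile. Slc10a1 encodes the sodium-dependent bile acid carrier NTCP, and the Slco genes encode organic anion transporting polypeptides, which do not depend on sodium. Abcb11 encodes the bile salt export pump, Abcb4 a phospholipid floppase, and Abcc2 the exporter MRP2 for conjugated organic anions, while MRP3 (Abcc3) and MRP4 (Abcc4) return anions to blood. The bile acid receptor FXR (Nr1h4) is a known activator of Abcb11, and NRF2 (Nfe2l2) and the xenobiotic receptors CAR and PXR are known activators of several Abcc and Slco genes.

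No transporter passed the test in either direction. The smallest standard errors were those of Slco1a1 (1.27-fold lower mean with UAB126), Abcb11 (1.24-fold higher) and Abcc4. Abcc4 had few fragments in vehicle and was tested only through its UAB126 libraries. The genes in this ranking were picked by the spread of these same values, which is no support for them. Levels are FPKM, fragments scaled by transcript length and by the number of mapped fragments. Differences are UAB126 minus vehicle on the log2(FPKM + 1) scale with limma's moderated standard error, and the threshold was a Benjamini-Hochberg adjusted p under 0.05 over the 10786 symbols whose mean reached 1 FPKM. All 9 genes passed that filter, Abcc4 just inside it at a mean of 1.08 FPKM and only through its UAB126 libraries. The filter therefore favours a higher value of Abcc4 with UAB126, and its direction is described only. Of the 9 genes 0 passed the threshold by limma, against 0.139% of all tested symbols (0.0464% higher and 0.0927% lower), and 0 had an unadjusted p under 0.05, against 13.4%. The groups did not overlap for 5 of the 9, with 2 higher (Abcb11 and Abcc4) and 3 lower (Slco1a1, Slco2b1 and Abcc3). Among all tested symbols the groups did not overlap for 49.6%, 22.7% higher and 26.9% lower, so the share of the transporters lies near this background. The median difference of the 9 genes was -0.25, and -0.02 after quantile normalization, beside -0.03 and 0.04 for all tested symbols.

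The 250 bases before the start of transcription are shown for 3 of the genes whose groups did not overlap, the 2 that were higher and Slco2b1, which was lower. They come from RefSeq (GRCm38.p6, the assembly also called mm10), on the strand of the gene and 5′ to 3′. RefSeq windows matched 9 of the 10 listed genes, and Abcc3 had no entry. Capitals mark matches to any of 3 motifs searched on both strands: the FXR type inverted repeat GGNCANTGNCC, the antioxidant response core TGACNNNGC bound by NRF2, and the STAT site TTCNNNGAA. The motifs were chosen after the values were seen.
Abcb11, chr2:69342617-69342866, minus strand: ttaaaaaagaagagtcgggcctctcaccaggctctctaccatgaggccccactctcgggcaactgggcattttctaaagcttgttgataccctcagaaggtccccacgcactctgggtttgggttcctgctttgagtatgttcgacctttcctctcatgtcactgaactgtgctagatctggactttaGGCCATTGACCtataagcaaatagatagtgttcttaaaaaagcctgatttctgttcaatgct
Abcc4, chr14:118706220-118706469, minus strand: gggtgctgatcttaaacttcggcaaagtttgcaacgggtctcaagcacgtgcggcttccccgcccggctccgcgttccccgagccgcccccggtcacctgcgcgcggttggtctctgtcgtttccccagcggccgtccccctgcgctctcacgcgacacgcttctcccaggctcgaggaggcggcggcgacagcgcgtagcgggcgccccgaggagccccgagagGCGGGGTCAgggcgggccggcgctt
Slco2b1, chr7:99711341-99711590, minus strand: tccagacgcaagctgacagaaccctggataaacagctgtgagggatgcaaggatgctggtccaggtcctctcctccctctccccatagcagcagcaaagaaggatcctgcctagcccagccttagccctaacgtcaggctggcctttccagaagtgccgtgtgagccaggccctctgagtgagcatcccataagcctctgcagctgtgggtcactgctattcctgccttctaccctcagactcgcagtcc
The inverted repeat begins 62 bases before the start in Abcb11. Among the listed genes it was found elsewhere only in Slco1b2, as GGACAGTGACC, 87 bases before its start, and 0.575% of all 32851 windows of this length hold it. The antioxidant core begins 25 bases before the start in Abcc4, on the opposite strand, and was also in the window of Abcc2 and in a window of Abcc4 at a second start. It occurs in 10.2% of all windows. The window of Slco2b1 at its first start holds none of the 3 motifs, while its window at another start, and windows of Slc10a1 and Slco1b2, hold the STAT site, found in 7.02% of windows. A match describes letters only, and binding was not measured.

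**Figure D1:**
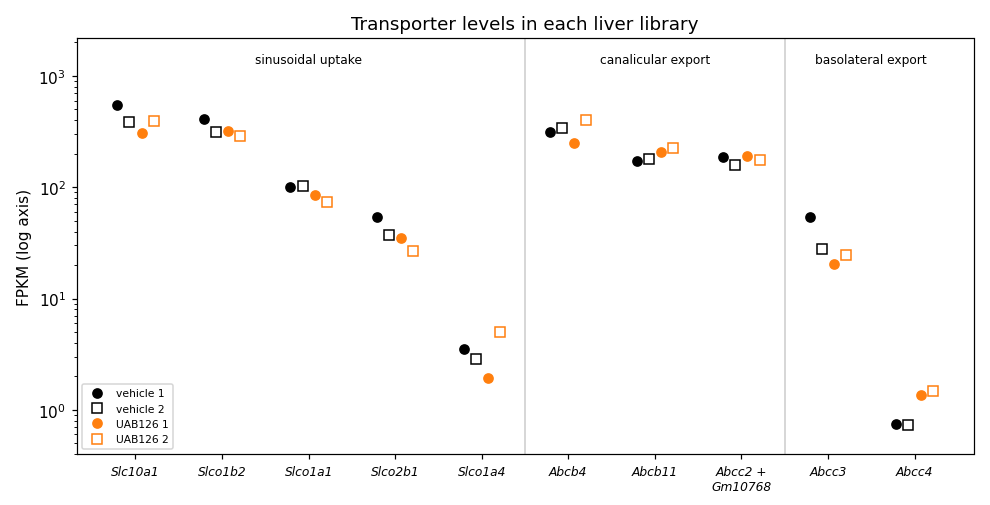
FPKM on a log axis for each gene, ordered by role, with a point for each library (black for vehicle and orange for UAB126, circles for replicate 1 and open squares for replicate 2). Both UAB126 points lie above both vehicle points for Abcb11 and Abcc4 (1.35 and 1.48 against 0.742 and 0.737 FPKM) and below them for Slco1a1, Slco2b1 and Abcc3.

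The levels of the transporters covered a 381-fold range in mean FPKM over the 4 libraries. Slc10a1 had the highest mean (410.4 FPKM), followed by Slco1b2 (333.2 FPKM), Abcb4 (326.3 FPKM) and Abcb11 (196.3 FPKM). The values of the first 3 overlapped across libraries, so their order is not resolved. Slco1a1 (90.9 FPKM) was below all of these, then came Slco2b1 (38.2 FPKM) and Abcc3 (31.6 FPKM), whose values also overlapped. Slco1a4 (3.32 FPKM) and Abcc4 (1.08 FPKM) were far lower and did not overlap each other.

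Among the sinusoidal uptake carriers, 4 of 5 had a negative difference, as had 52.6% of all tested symbols, and none passed. Slc10a1 (chromosome 12, 80953183 to 80968705) had 552.6 FPKM in vehicle replicate 1, 389.6 FPKM in replicate 2, and 309.1 and 390.5 FPKM in the UAB126 replicates in the same order, which is kept from here on. The second UAB126 library was level with the second vehicle library, so the groups overlapped by a narrow margin. The difference was -0.42 ± 0.30 (95% interval -1.16 to 0.33, limma adjusted p = 0.530), and it was -0.03 after quantile normalization. Leaving out a library gave -0.16 without vehicle replicate 1, -0.25 without UAB126 replicate 1 and -0.67 without vehicle replicate 2.

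Slco1b2, Slco1a4 and Slco1a1 lie close together on chromosome 6. Slco1b2 (141629518 to 141686646), the mouse counterpart of the human OATP1B carriers, measured 414.3 and 312.0 FPKM in the vehicle pair, then 320.2 and 286.1 FPKM in the UAB126 pair. Vehicle replicate 1 stood above the other 3 libraries, and the groups overlapped. Its difference of -0.25 ± 0.26 (95% interval -0.91 to 0.41) was -0.04 without that library, -0.45 without vehicle replicate 2, and turned to 0.10 with quantile normalization.

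Slco1a1 (141907282 to 141946962), a carrier known to be more abundant in male than in female mouse liver, measured 101.5 and 101.9 FPKM in the vehicle pair, then 85.9 and 74.4 FPKM in the UAB126 pair. The vehicle pair was nearly identical and both UAB126 libraries were lower, a ratio of means of 1.27. The difference was -0.34 ± 0.21 (95% interval -0.86 to 0.18, limma adjusted p = 0.483). It was -0.09 after quantile normalization.

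Slco1a4 (141805440 to 141856199), a carrier known to be more abundant in females and inducible by drugs, measured 3.49 and 2.87 FPKM in the vehicle pair, then 1.93 and 4.98 FPKM in the UAB126 pair. The UAB126 libraries lay on opposite sides of the vehicle pair and differed from each other by 2.58-fold. The difference was 0.01 ± 0.37 with an interval from -0.92 to 0.94 (limma adjusted p = 0.995), the largest standard error of the 9 genes. It was 0.52 without UAB126 replicate 1 and -0.51 without UAB126 replicate 2.

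Slco2b1 (chromosome 7, 99657804 to 99711340), a widely expressed organic anion carrier, measured 53.8 and 37.1 FPKM in the vehicle pair, then 35.1 and 26.7 FPKM in the UAB126 pair. Both UAB126 libraries were lower than both vehicle libraries, the closest values being 37.1 and 35.1 FPKM. The difference was -0.53 ± 0.27 (95% interval -1.21 to 0.15, limma adjusted p = 0.431), and it was -0.27 without vehicle replicate 1 and -0.34 without UAB126 replicate 2.

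At the canalicular membrane, Abcb11 had a higher mean with UAB126, while Abcb4 and the row holding Abcc2 had means closer to those of vehicle. Abcb11 (chromosome 2, 69238282 to 69342616) measured 173.2 and 177.7 FPKM in the vehicle pair, then 209.2 and 225.1 FPKM in the UAB126 pair. Both pairs were tight and did not overlap, and the mean was 1.24-fold higher. The difference was 0.31 ± 0.22 (95% interval -0.24 to 0.85, limma adjusted p = 0.528), and from 0.21 to 0.67 over all alternatives.

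Abcb4 (chromosome 5, 8893717 to 8959231) measured 311.9 and 342.0 FPKM in the vehicle pair, then 250.7 and 400.5 FPKM in the UAB126 pair. The UAB126 libraries enclosed the vehicle pair. The difference was -0.04 ± 0.31 (95% interval -0.82 to 0.73), and its direction turned with quantile normalization (0.32) and without UAB126 replicate 1 (0.29).

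The row naming Abcc2 and Gm10768 (Abcc2 lies on chromosome 19, 43782192 to 43840740) measured 186.9 and 159.4 FPKM in the vehicle pair, then 190.6 and 177.0 FPKM in the UAB126 pair. The groups overlapped, with a difference of 0.09 ± 0.22 (95% interval -0.48 to 0.66). It was 0.45 with quantile normalization, and it turned to -0.025 without vehicle replicate 2. How much of this row comes from each gene cannot be told apart.

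**Figure D2:**
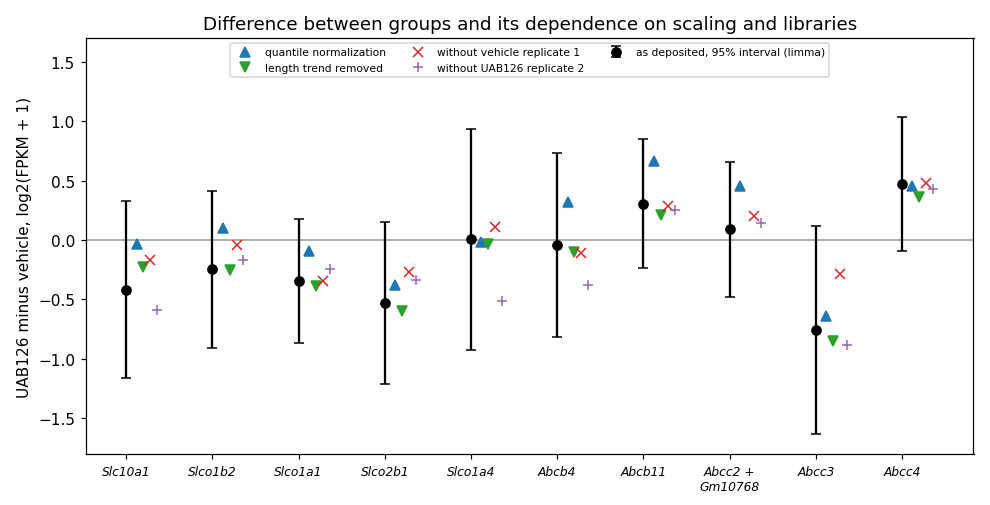
Difference of UAB126 from vehicle in log2(FPKM + 1) for each gene (black points with limma's 95% interval) and under 4 alternatives (coloured symbols). Every interval as deposited includes 0, quantile normalization moves most of the abundant genes upward, as for Abcb11 (0.67 against 0.31), and Abcc3 comes closer to 0 without vehicle replicate 1 (-0.29 against -0.76).

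The basolateral exporters pointed in opposite directions. Abcc3 (chromosome 11, 94343295 to 94392997) measured 53.8 and 27.6 FPKM in the vehicle pair, then 20.4 and 24.6 FPKM in the UAB126 pair. Both UAB126 libraries were below the vehicle libraries, but the vehicle libraries differed by 1.95-fold. Its difference of -0.76 ± 0.35 (95% interval -1.63 to 0.12, limma adjusted p = 0.408) had the lowest unadjusted p of the 9 genes (0.0771). It was -0.29 without vehicle replicate 1 and -1.23 without vehicle replicate 2. The deposited locus of the row spans 337754 bases and covers neighbouring genes, beside an annotated gene of 49703 bases.

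Abcc4 (chromosome 14, 118482692 to 118706219) measured 0.742 and 0.737 FPKM in the vehicle pair, then 1.35 and 1.48 FPKM in the UAB126 pair. Values within each pair were close, and the mean was 1.91-fold higher. The vehicle pair rests on too few fragments for its closeness to measure precision. The difference was 0.47 ± 0.22 (95% interval -0.09 to 1.04, limma adjusted p = 0.415). The pseudocount of 1 shrinks both the change and the spread of so low a gene. With 0.1 the difference was 0.85 (limma adjusted p = 0.438). From the value of a single fragment in each library, read from low values, the Abcc4 row rests on about 66 and 38 fragments in vehicle and 172 and 134 with UAB126. Those for Slco1a4 come to about 209 and 100, and 165 and 302. These numbers take the longest annotated transcript as the length and are approximate.

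Ratios between genes within a library do not depend on a single factor that scales the whole library. They can still carry shifts that differ with level or transcript length, and they were not computed under another scaling. With 2 libraries against 2, the exact two-sided permutation test cannot go below p = 0.333. That was its value for the 4 ratios of 5 whose groups did not overlap. Among single tested symbols the groups did not overlap for 49.6%, and no such share was computed for ratios. Each ratio holds a gene whose own groups did not overlap, so the count adds no support. Abcc4 was 0.00428 and 0.00415 of Abcb11 in vehicle and 0.00644 and 0.00659 with UAB126. Values within each pair were close, and the log2 ratio was higher by 0.63 with UAB126. Abcc4 rests on few fragments in vehicle and was tested only through its UAB126 libraries. Abcb11, the main exporter of bile acids, was 0.313 and 0.456 of Slc10a1, their main uptake carrier, in vehicle and 0.677 and 0.576 with UAB126, a log2 difference of 0.72. Without vehicle replicate 1, the lowest library, it was 0.45. Taken singly, Abcb11 and Slc10a1 differed by 0.21 and -0.22 with the length trend removed, and by 0.67 and -0.03 after quantile normalization.

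Abcc3 was 0.288 and 0.173 of the row with Abcc2 in vehicle and 0.107 and 0.139 with UAB126, a log2 difference of -0.87. Abcc3 and Abcc4 summed, set against Abcb11 and the row with Abcc2 summed, stood at 0.151 and 0.0840 in vehicle and 0.0544 and 0.0648 with UAB126. Abcc3 made up most of the first sum (mean 31.6 FPKM, beside 1.08 FPKM for Abcc4). The summed ratio therefore largely repeats that of Abcc3 and does not show the opposite direction of Abcc4. Vehicle replicate 1 was the highest library in both ratios, and without it the log2 differences were -0.51 and -0.50. The ratio of Slco1a4 to Slco1a1 was 0.0344 and 0.0282 in vehicle and 0.0225 and 0.0670 with UAB126, with overlapping groups (exact two-sided permutation p = 1.0).

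**Figure D3:**
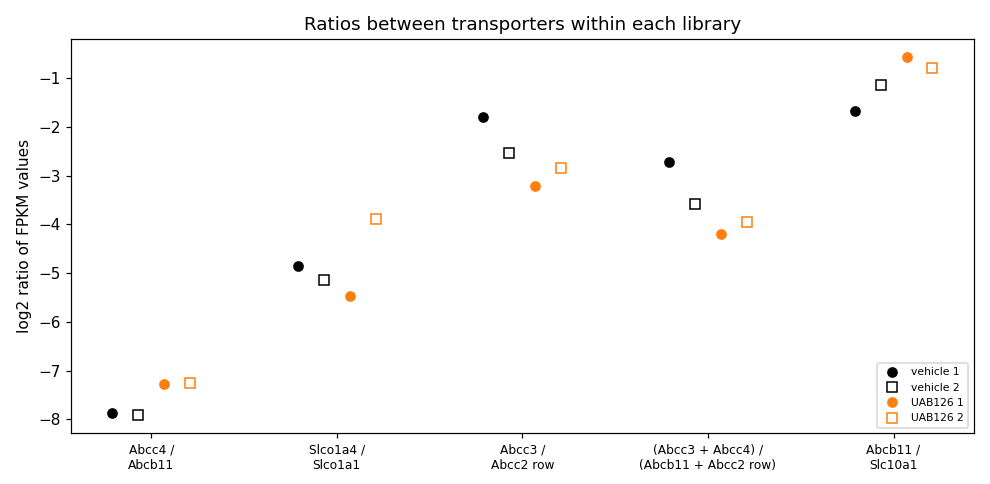
Log2 ratios of FPKM values within each library for 5 pairs or sums of genes (symbols as in the plot of levels). Abcc4, which rests on few fragments in vehicle, over Abcb11 shows close values within each group (-7.87 and -7.91 in vehicle, -7.28 and -7.25 with UAB126). Slco1a4 over Slco1a1 spreads most among the UAB126 libraries.

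Of the 10 genes, 5 share sequence with other genes. Of the 75-base words (the read length in the labels) of the longest annotated transcript, 0% occurred in a transcript of another gene for Slc10a1, Slco1b2, Abcc2, Abcc3 and Abcc4. Slco1a1 shared 1.51% and Slco1a4 1.76%, with each other and with further Slco1a genes, and Abcb4 shared 60 of its 4005 words with Abcb1a and Abcb1b. Abcb11 shared 1.29% with Gm13613. Slco2b1 shared 6.78% with Gm15635 and Gm34280, the largest share of the 10. These words were compared on both strands. Whether the kit kept strand is not stated, so it is not known whether a gene and an overlapping partner on the other strand share reads here.

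Values of other kinds moved beside these results. Vehicle replicate 1 was the highest of the 4 libraries for Slc10a1, Slco1b2, Slco2b1 and Abcc3, and it was the lowest for 7 of 7 Kupffer cell markers (summed 88.2 FPKM against 175.5 to 270.7 FPKM) and for 7 of 7 sinusoidal endothelial markers (89.3 against 141.2 to 161.9 FPKM). It was the lowest for 3 of 7 stellate cell markers. Hepatocyte markers summed to 68546 FPKM in it, 94810 FPKM in vehicle replicate 2, and 41277 and 56673 FPKM in the UAB126 pair. UAB126 replicate 2 was the highest library for Slco1a4, Abcb4, Abcb11 and Abcc4. In it 4 of 4 kidney tubule markers were above 0 and summed to 34.8 FPKM, 32.8 FPKM of it Kap, against 0 to 0.0217 FPKM elsewhere. Kidney tubule is also known to express Abcc4. The part of these marker differences in the transporter values was not tested beyond the difference without the library. For Abcc4 that was 0.43 without UAB126 replicate 2 and 0.48 without vehicle replicate 1. In bulk liver, fewer cells of a type and less RNA per cell cannot be told apart.

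The direction of the abundant transporters can be read against other abundant genes. Of the tested symbols, the 1036 that averaged 100 FPKM or more had a median difference of -0.39, and the 4154 from 10 to 100 FPKM one of -0.08. Slc10a1 (-0.42) was close to the first value, while Slco1b2 (-0.25), Abcb4 (-0.04) and Abcb11 (0.31) were above it. Symbols with transcripts from 3000 to 6000 bases, where 8 of the 9 genes fall, had a median of 0.06. Slc10a1, at 1749 bases, falls among those from 1500 to 3000 bases, whose median was -0.10. Removing the trend with length left Abcb11 at 0.21, Abcc4 at 0.36, Slc10a1 at -0.22 and Abcc3 at -0.85.

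All 4 related lists stayed without a gene past the threshold by limma. Of 18 tested genes among other transporters, 1 higher and 1 lower had an unadjusted p under 0.05, against 5.03% and 8.38% of all tested symbols. Slc47a1, the organic cation exporter MATE1, measured 135.8 and 104.8 FPKM in the vehicle pair, then 64.8 and 69.8 FPKM in the UAB126 pair. Its difference was -0.82 ± 0.23 (limma adjusted p = 0.276), and -0.56 after quantile normalization. Slc22a5, the carnitine carrier, was at 5.36 and 2.87 against 6.72 and 9.70 FPKM. Slc22a3, an organic cation carrier, was at 2.79 and 2.90 against 3.66 and 4.26 FPKM.

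Slc51b, a subunit of the basolateral organic solute exporter, measured 1.05 FPKM in vehicle replicate 1, was listed at 0 in the other, and reached 1.59 and 1.85 FPKM in the UAB126 pair. Slc51b, like Abcc4, passed the filter of 1 FPKM only through its UAB126 libraries, which favours a higher value there. Its 0 fell in vehicle replicate 2, the library of lowest depth (0.407, taking UAB126 replicate 1 as 1). The partner of Slc51b, Slc51a, was listed at 0 in 3 libraries and at 0.0880 FPKM in UAB126 replicate 2. Slc22a5, Slc22a3 and Slc51b were also highest in that library, where all the kidney tubule markers were above 0. The part of kidney tubule in these values was not tested. The canalicular genes Abcg2, Abcg5, Abcg8 and Atp8b1 had overlapping groups and differences of -0.08, 0.01, 0.32 and 0.04, of which that of Abcg2 turned to 0.15 with quantile normalization and that of Atp8b1 to -0.09 with the length trend removed. For Abcg5, part of the canalicular sterol exporter, the interval ran from -0.50 to 0.52.

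Among 20 tested receptors and regulators, 2 higher and 0 lower had an unadjusted p under 0.05, against 5.03% and 8.38% of all tested symbols. Nr1h4 (FXR) was at 83.5 and 87.0 against 79.8 and 87.1 FPKM, a difference of -0.03 ± 0.20 that turned with quantile normalization (0.23) and with the length trend removed (0.11). Its target Nr0b2, the corepressor SHP, was at 46.3 and 41.8 against 54.7 and 51.5 FPKM (0.27 ± 0.19), with groups that did not overlap. Nr1i2 (PXR) differed by -0.04 ± 0.27 (0.11 with quantile normalization and 0.03 with the length trend removed), and Nr1i3 (CAR) appeared only in a row shared with Apoa2 and is given no value. Ahr, the aryl hydrocarbon receptor, was at 3.99 and 3.40 against 9.85 and 7.87 FPKM (1.07 ± 0.20, limma adjusted p = 0.191). Stat5b and Klb were higher in both UAB126 libraries (0.49 ± 0.17 and 0.39 ± 0.17), and Nfe2l2 (NRF2) was lower in both (-0.46 ± 0.21). None of these passed.

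Among 17 tested scaffold and trafficking genes, 0 higher and 2 lower had an unadjusted p under 0.05, against 5.03% and 8.38% of all tested symbols. Slc9a3r1, the scaffold NHERF1 of apical transporters, measured 213.9 and 214.0 FPKM in the vehicle pair, then 131.8 and 123.4 FPKM in the UAB126 pair. Its difference was -0.74 ± 0.21 (limma adjusted p = 0.279), and -0.39 after quantile normalization. Myo5b, the motor that carries transporters to the canalicular membrane, was at 12.2 and 11.0 against 6.20 and 7.49 FPKM. Ceacam1, an adhesion protein of the canalicular membrane, differed by 1.00 ± 0.46. Of 16 tested genes of bile acid synthesis and conjugation, 1 higher and 1 lower had an unadjusted p under 0.05, beside the same 5.03% and 8.38%. The higher one, the oxysterol hydroxylase Cyp39a1, was at 3.60 and 3.42 against 21.0 and 36.2 FPKM (2.66 ± 0.29, limma adjusted p = 0.0694). The lower one, Cyp46a1, was at 5.50 and 3.27 against 1.75 and 2.41 FPKM. Baat, the enzyme that conjugates bile acids, was at 158.9 and 175.2 against 125.4 and 127.3 FPKM, a difference of -0.40 that was -0.04 after quantile normalization. Scp2 differed by -0.72 ± 0.31, and by -0.29 after quantile normalization.

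**Figure D4:**
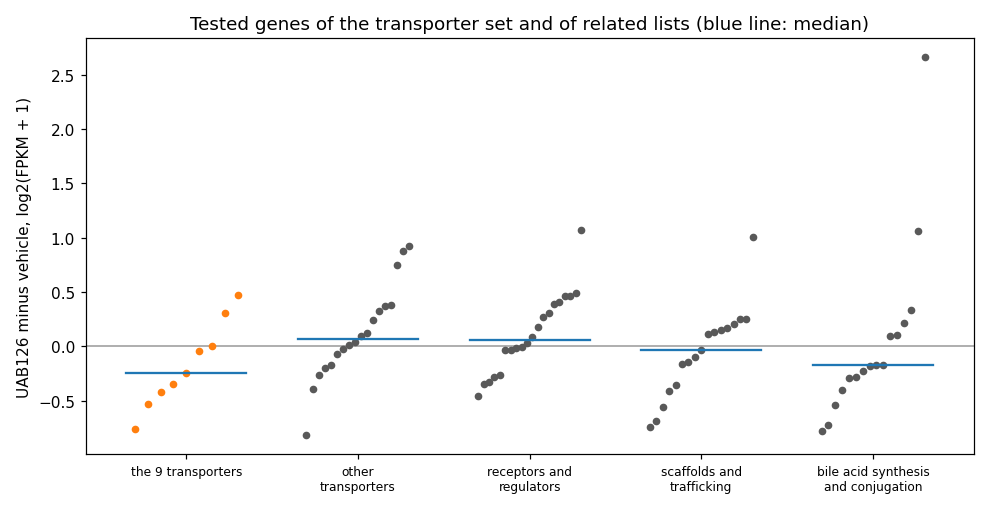
UAB126 minus vehicle in log2(FPKM + 1) for each tested gene (points, ordered by value within a list) of the 9 transporters (orange) and of 4 related lists (grey), with the median as a blue line. The transporters run from -0.76 (Abcc3) to 0.47 (Abcc4), within the span of the other lists, whose medians lie between -0.18 (bile acid synthesis, 0.21 after quantile normalization) and 0.07.

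The labelled tissue was checked against marker lists. Hepatocyte markers were abundant in every library (9 of 10 measured, summed 41277 to 94810 FPKM), and 6 of the 9 were lower in both UAB126 libraries and 1 higher, against 26.9% and 22.7% of all tested symbols, with a median difference of -0.66 that turned to 0.08 with quantile normalization. Summed cholangiocyte markers ran from 65.7 to 81.4 FPKM, most of it Spp1, and stellate markers from 142.5 to 187.5 FPKM. Of the enterocyte markers Fabp6 was listed at 0 in all libraries and Vil1 was at most 0.185 FPKM, while Fabp2 accounted for most of the list's sum of 60.1 to 273.3 FPKM. Fabp2 differed between the groups, at 256.6 and 268.9 FPKM in the vehicle pair against 55.7 and 86.8 FPKM in the UAB126 pair (-1.90 ± 0.28, limma adjusted p = 0.125), and its part in the transporter values was not tested. Taking UAB126 replicate 1 as 1, the depth read from low values was 0.702 and 0.407 in vehicle replicates 1 and 2 and 0.709 in UAB126 replicate 2, so Abcc4 and Slco1a4 were counted least precisely in vehicle replicate 2.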

How the data were processed

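The authors deposited 1 table of FPKM values with a column per library. Per the labels' protocols, polyadenylated liver RNA was sequenced from both ends, and reads were handled, per the submitters' processing notes, with Cuffdiff, Cufflinks 2.2.1, STAR 2.5.1b and Trim Galore 0.4.1 on genome build mm10. The sources used here do not give the annotation or settings.

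Of 27216 rows, 3634 without a symbol were left out, and rows that shared a symbol were summed. Joint rows were kept under their joint name and not used as members. Symbols averaging 1 FPKM or more were fitted as log2(FPKM + 1) with limma 3.58.1 in R 4.3.3 (lmFit on group alone, then eBayes with a trend on intensity, two-sided). The test has 5.35 degrees of freedom, 3.35 of them from other genes. It was run on simulated data with the same spread for every gene and effects larger than any transporter difference here. That run does not show how the test performs at differences of this size. Tables were made with Python 3.11.15 and pandas 2.3.3. Positions and lengths came from GENCODE M21 (GRCm38).

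Depth was read from symbols with a single annotated transcript over 1500 bases, whose low values fall on steps of 1 fragment. All 10 transporters were named. From the related lists the text names 10 fixed genes, any gene that passed, and per list the 4 with the smallest unadjusted p, of which 1 is not reported here. The members and lists were chosen with earlier results of these data known. The 14 alternatives are described with their effects further on.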

Additional observations from a re-analysis of the deposited data

How the results depend on the processing

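No transporter passed the threshold in any of the 14 alternatives, where the lowest adjusted p was 0.132 (Slco2b1, replicate block). Of 124 values of the 9 genes, 9 changed sign, in Slco1a4, Abcb4 and Slco1b2. Slco1a4 (0.01) turned to -0.024 with a pseudocount of 0.1, -0.016 with quantile normalization, -0.035 with the length trend removed, and ran from -0.51 to 0.52 over the fits without 1 library (-0.10 without vehicle replicate 2). Abcb4 (-0.04) turned to 0.32 with quantile normalization and ran from -0.38 to 0.29 without 1 library (0.02 without vehicle replicate 2), Slco1b2 turned to 0.10 with quantile normalization, and the row with Abcc2 (0.09) ran from -0.025 to 0.20 without 1 library. The count over all genes (15) was 27 with a pseudocount of 0.1, 24 with quantile normalization, 23 with library medians set equal, 0 with no filter and 0 with rows without a symbol kept, and from 0 to 442 without 1 library (442 when vehicle replicate 1 was left out, 56 for vehicle replicate 2, 14 for UAB126 replicate 1 and 0 for the other UAB126 library). The cause was not tested. At a mean of at least 5 FPKM, Slco1a4 and Abcc4 were not tested. The replicate numbers were not shown to pair the libraries. Deviations of same-numbered libraries correlated at 0.18 across 10786 genes, and as a replicate block they gave 148 genes past the threshold, none of them a transporter. In fits that leave a group with 1 library, that library is assumed to vary like the others. Depth limits the low genes Abcc4 and Slco1a4.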
